A study of Homo sapiens with 12 samples.

Results

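The mitochondrial ribosomal protein genes were taken as the gene names of the count table that begin with MRPL or MRPS followed by a number and at most 1 letter. There were 78 such names among 59385, and 75 of them had enough reads to be tested among 18166 tested names. They were measured in HEK293T, an established human embryonic kidney line, carrying a doxycycline-inducible short hairpin RNA. The shCtrl line expressed a non-targeting hairpin, and the shPRRC2B line expressed a hairpin against PRRC2B, an RNA-binding protein with a role in translation initiation. Both lines were treated with doxycycline for 36 h, both were stable clones, and each yielded total RNA and polysome RNA, the latter pooled from the gradient fractions of mRNAs that carried several ribosomes. Each of the 4 groups (shCtrl total, shCtrl polysome, shPRRC2B total and shPRRC2B polysome) had 3 biological replicates, giving 12 poly(A) libraries. A difference between the lines cannot be told apart from a difference between the clones.

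The mitochondrial ribosome translates the few mRNAs of the mitochondrial genome, whose products are core subunits of the respiratory chain and of ATP synthase. Its rRNAs are encoded in the mitochondrial genome, but all of its proteins are encoded in the nucleus, translated on cytosolic ribosomes and imported, so their mRNAs are found on cytosolic polysomes. The small subunit holds the decoding centre and the large subunit the peptidyl transferase centre. Some proteins descend from bacterial ribosomal proteins and others are specific to mitochondria. Symbols do not always give the subunit: the proteins of MRPS30 and MRPS18A sit in the large subunit, and MRPS36 is known as a subunit of the 2-oxoglutarate dehydrogenase complex and was given no subunit here.

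Many of these mRNAs start translation close to their 5′ end. The canonical transcript had a 5′ UTR of 30 nt or less for 39 of the 78 members, against 9.85% of the 13700 protein-coding names tested, and the median 5′ UTR was 30.5 nt against 145 nt. The 8 letters AAGATGGC, with the start codon as its middle letters, form the core of the TISU element known from mRNAs with very short 5′ UTRs. They were searched on the sense strand at the annotated start codon only, and were present in 14 of 78 members (17.9%) and in 517 of 18956 protein-coding names of the table (2.73%). Among the members with these letters are MRPS24 and MRPL38, which are described below but not printed here. The start-codon contexts of 6 others follow, with those of 4 members without the letters that had among the most extreme changes. Each shows the 9 bases before the start codon, the start codon and the 6 bases after it, 5′ to 3′ on the coding strand, read from GENCODE 44 transcripts (GRCh38). Capitals mark AAGATGGC where it was present and otherwise the start codon alone.
MRPS27: cgctccAAGATGGCtgcc
MRPS10: accggcAAGATGGCggcg
MRPL49: caggtaAAGATGGCagct
MRPS30: cgggcaAAGATGGCggcg
MRPL35: aaggtgAAGATGGCtgcc
MRPL46: gaacgaAAGATGGCggcg
MRPL30: actacacttATGgctggg
MRPS25: gttgccgccATGcccatg
MRPL12: cgcggaccgATGctgccg
MRPL34: actgcggatATGgctgtc
The start codons lie at chr5:72320219-72320221 (minus strand) for MRPS27, chr2:99186204-99186206 (plus) for MRPL30, chr3:15065192-15065194 (minus) for MRPS25, chr17:81703502-81703504 (plus) for MRPL12 and chr19:17305893-17305895 (plus) for MRPL34. They are in exon 1 of the canonical transcript, except that of MRPL30, which is in exon 2.

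Libraries held between 9855734 and 20837542 counted read pairs. PRRC2B was at 258 to 313 CPM (counts relative to library size, scaled by the trimmed mean of M-values, TMM) in shCtrl total RNA and at 97.9 to 103 CPM in shPRRC2B total RNA, a log2 change of -1.49 ± 0.17 (SE, edgeR adjusted p = 4.25e-06). All 6 listed HEK293T markers had enough reads to be tested. In shPRRC2B total RNA the neurofilament genes NEFM and NEFL were lower, the former by a log2 change of -1.57, while LIN28B and VIM were higher, by 1.07 and 0.96, and the part of such differences between the lines in the results below was not tested. The summed level of the cytosolic ribosomal protein genes was 34242 to 57656 CPM in total and 295294 to 456388 CPM in polysome libraries, and TMM factors were 1.34 to 1.47 in total and 0.681 to 0.742 in polysome libraries. Levels in polysome RNA relative to total RNA therefore depend on the scaling, and the effect on the counts over all members is given beside them.

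Among the tested members the mean level in shCtrl total RNA, as CPM per kb of canonical transcript, ran from 0.544 to 133 with a median of 24.3. The highest was MRPL37, a mitochondria-specific protein of the large subunit, at 133 ± 9.70 CPM per kb (SD, n = 3). MRPS34 at 91.8 ± 8.63 and MRPL55 at 89.9 ± 8.02 came next and did not differ beyond their spread, followed by MRPS26 at 78.3 ± 7.81 CPM per kb. At the low end of the tested members were MRPS24 at 0.544 ± 0.0241, MRPS17 at 3.22 ± 0.275 and MRPL38 at 3.46 ± 0.854 CPM per kb. MRPL42 was at 4.72 ± 0.158 CPM per kb, over a canonical transcript of 15557 nt that has a coding length of only 426 nt.

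Almost no reads were counted for 3 listed members. MRPL45 had 0 to 4 counts in each library, and MRPL53 and MRPS18B had at most 1 count in any library. The counting left out read pairs that matched more than one place or more than one gene. In GENCODE 44, 99.2% of the exonic bases of MRPL53 were also exonic in another gene, and this share was 94.3% for MRPL38, 90.9% for MRPS24 and 97.1% for MRPS5. It was 0 for MRPL45 and MRPS18B. In all, 10 of the 78 members shared over 50% of their exonic bases with another gene, and 47 shared none. The low counts of these genes cannot be read as low expression, and the part that the counting had in them was not tested.

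The members' mRNAs were more abundant in polysome RNA than in total RNA in both lines. In shCtrl 68 of 75 tested members were higher in polysome RNA and 1 was lower, by edgeR's quasi-likelihood test with adjusted p below 0.05 and a log2 difference beyond 0.5, the thresholds used for every call here. Over all genes tested, 32.5% were higher and 39.8% lower. The median log2 ratio of polysome to total RNA was 2.24 for the members and -0.22 for all genes. In shPRRC2B 67 were higher and 2 lower, against 36.6% and 42.3% of all genes, with a median of 2.37 for the members. When libraries were scaled by total counts, the median over all genes moved to -1.22 in shCtrl and that of the members to 1.24, with 54 higher and 7 lower in shCtrl and 56 higher and 8 lower in shPRRC2B. With the transcript-length trend removed, 53 members were higher and 3 lower in shCtrl, with a median of 1.13. In shPRRC2B 47 were then higher and 10 lower, with a median of 0.999. Over all genes that fit gave 5631 higher and 5494 lower in shCtrl, and 6311 and 6346 in shPRRC2B.

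Short coding sequences went with high ratios. MRPL33, a large-subunit protein of bacterial descent with a coding length of 195 nt, had the highest log2 ratio in shCtrl, 4.12 ± 0.18 (SE). Its libraries were at 21.1, 22.0 and 17.6 CPM in total RNA and at 445, 316 and 297 CPM in polysome RNA. MRPL57, MRPS18C, MRPS36 and MRPL41 followed, with log2 ratios of 3.95, 3.89, 3.61 and 3.56. The lowest ratio was that of MRPL38 at -1.53 ± 0.43, the single member called lower, from 12 to 18 counts in the polysome libraries. MRPS27, MRPL30, MRPS5 and MRPS30 had log2 ratios between -0.04 and 0.25 and did not pass the test. With total-count scaling all 4 were lower in polysome RNA, MRPS27 at -1.05, MRPL30 at -1.005, MRPS5 at -0.92 and MRPS30 at -0.75. With the transcript-length trend removed MRPL30 was at 0.87 and MRPS30 at -0.78. Across the 75 members, the ratio and the log2 coding length had a Pearson r of -0.66 and a Spearman rho of -0.65. Across 13700 coding genes these were -0.62 and -0.65. Genes are not independent replicates, and all points share the same 6 libraries.

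Within each class of coding length the median of the members lay above that of all coding genes. The 22 members with a coding length under 450 nt had a median log2 ratio of 3.14, against 2.73 for 893 coding genes of that length. From 450 to below 600 nt the medians were 2.47 for 18 members and 1.79 for 783 genes, and from 600 to below 900 nt they were 1.92 for 20 members and 1.00 for 1846 genes. At 900 nt or more the 15 members had a median of 1.32, while 10178 coding genes had a median of -0.78. This last class runs to much longer genes, since its median coding length was 1080 nt for the members and 1758 nt for the genes.

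**Figure D1:**
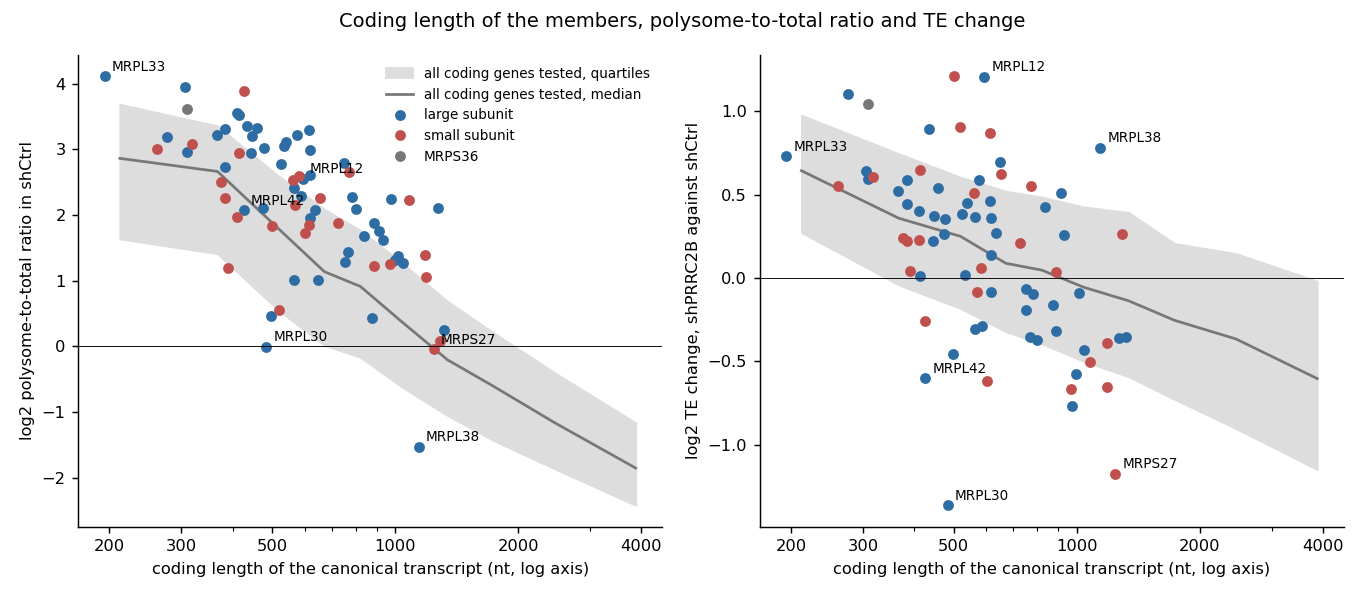
Coding length of the canonical transcript (nt, log axis) against the log2 polysome-to-total ratio in shCtrl (left) and the log2 change in that ratio between the lines (right). Points are the 75 tested members, the line is the median of coding genes in windows of length and the band their quartiles; members lie mostly above the line on the left and are scattered around it on the right.

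In total RNA 17 of 75 members were higher in shPRRC2B and 8 were lower, where 14.9% of all genes were higher and 14.1% lower. The median log2 change was 0.17 for the members and 0.04 for all genes. In bulk RNA a change in the number of transcripts per cell cannot be told apart from a change in the share of cells that carry them. Scaling by total counts gave 11 members higher and 10 lower. The 8 lower members became 4 without shCtrl total replicate 2, 5 without shPRRC2B total replicate 2 and 5 without shPRRC2B total replicate 3.

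The large subunit held 13 of the 17 higher members and 5 of the 8 lower ones among its 49 tested members. These were 26.5% and 10.2% of the 49, beside 14.9% and 14.1% of all genes. MRPL20, a large-subunit protein of bacterial descent, was at 32.9, 30.0 and 28.6 CPM in shCtrl total RNA and at 71.8, 71.1 and 73.0 CPM in shPRRC2B total RNA. All shPRRC2B libraries were above all shCtrl libraries, and MRPL20 rose by 1.24 ± 0.13 on the log2 scale (adjusted p = 3.04e-06). Of all genes tested, 34.1% had every shPRRC2B total library above every shCtrl one, and 28.8% had every one below. MRPL1, a protein of the stalk near the tRNA exit site, rose by 0.93 ± 0.17 from 9.13, 8.84 and 10.8 CPM to 18.9, 19.5 and 16.4 CPM, again without overlap (adjusted p = 0.000533). MRPL43 rose by 0.72 ± 0.12 (adjusted p = 0.000196). MRPL20, MRPL1, MRPL43, MRPS18A and MRPS18C were called under each of the 20 alternative settings in which this comparison was run.

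The small subunit held 4 higher and 3 lower members of 25, and its median log2 change in total RNA was -0.10, against 0.18 for the large subunit. MRPS25, a mitochondria-specific protein, was at 111, 110 and 104 CPM in shCtrl and at 47.0, 44.6 and 56.2 CPM in shPRRC2B. The groups were far apart, and MRPS25 fell by 1.14 on the log2 scale (SE 0.13, adjusted p = 5.31e-06). Of its exonic bases, 44.1% were shared with other genes, among them NR2C2. MRPL32 fell by 0.72 (SE 0.12, adjusted p = 0.000226) from 35.2, 34.9 and 35.4 CPM to 20.9, 21.6 and 21.6 CPM. MRPS17, MRPL24 and MRPL55 fell by 0.69, 0.60 and 0.57, and these 3 calls were lost in 7, 3 and 2 of the 20 alternatives.

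Summed over 26 small-subunit and 51 large-subunit members, the large-to-small ratio of CPM was 1.78, 1.82 and 1.78 in the shCtrl total libraries and 2.04, 2.01 and 1.97 in the shPRRC2B total libraries. It was 2.61, 2.52 and 2.55 in shCtrl polysome RNA and 2.80, 2.82 and 2.88 in shPRRC2B polysome RNA. The lines did not overlap in either fraction. With MRPL20 left out, the means were 1.76 ± 0.0241 and 1.94 ± 0.0392 in total RNA and 2.49 ± 0.0313 and 2.67 ± 0.0314 in polysome RNA (SD, n = 3), and the lines were still apart. MRPS25, a small-subunit member whose fall in total RNA is given above, was kept in these sums. Its part in the difference was not tested, so the ratios do not show a shift shared by the members of a subunit.

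In polysome RNA 27 of 75 members were higher in shPRRC2B and 7 were lower, against 18.4% higher and 21.4% lower of all genes. The median log2 change was 0.32 for the members and -0.01 for all genes. The 27 became 16 without shCtrl polysome replicate 3, 16 without shPRRC2B polysome replicate 1 and 16 once the trend with transcript length was removed. Removing that trend left 12 lower members in place of 7, and 11 were lower when shPRRC2B polysome replicate 1 was left out. The summed CPM of all 78 members was 15545, 15204 and 13161 in shCtrl and 20387, 18843 and 20167 in shPRRC2B, so that the lines did not overlap.

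MRPL20 had the largest change here too. It was at 337, 246 and 263 CPM in shCtrl polysome RNA and at 832, 851 and 897 CPM in shPRRC2B, a rise of 1.61 ± 0.13 on the log2 scale (adjusted p = 9.37e-08). MRPL34, MRPL43 and MRPL14, all of the large subunit, rose by 1.14 ± 0.18, 1.07 ± 0.12 and 1.04 ± 0.17. MRPS24 had a log2 change of 0.99 ± 0.44 that did not pass the test (adjusted p = 0.0762), from 10 to 37 counts per polysome library.

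Among the 7 lower members, 5 belonged to the small subunit, 20.0% of its 25 tested members, where 21.4% of all genes were lower. MRPL30, a large-subunit protein of bacterial descent, was at 32.5, 54.6 and 46.5 CPM in shCtrl and at 26.8, 18.7 and 12.7 CPM in shPRRC2B. No library of one line reached the other, and MRPL30 fell by 1.19 on the log2 scale (SE 0.22, adjusted p = 0.000254). Of all genes tested, 21.5% had every shPRRC2B polysome library below every shCtrl one, and 21.6% had every one above. MRPS9 and MRPL37 fell by 0.83 (SE 0.14) and 0.82 (SE 0.13). MRPS27 fell by 0.80 (SE 0.15) and MRPS17 by 0.65 (SE 0.22), the latter call being lost in 3 of 20 alternatives.

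**Figure D2:**
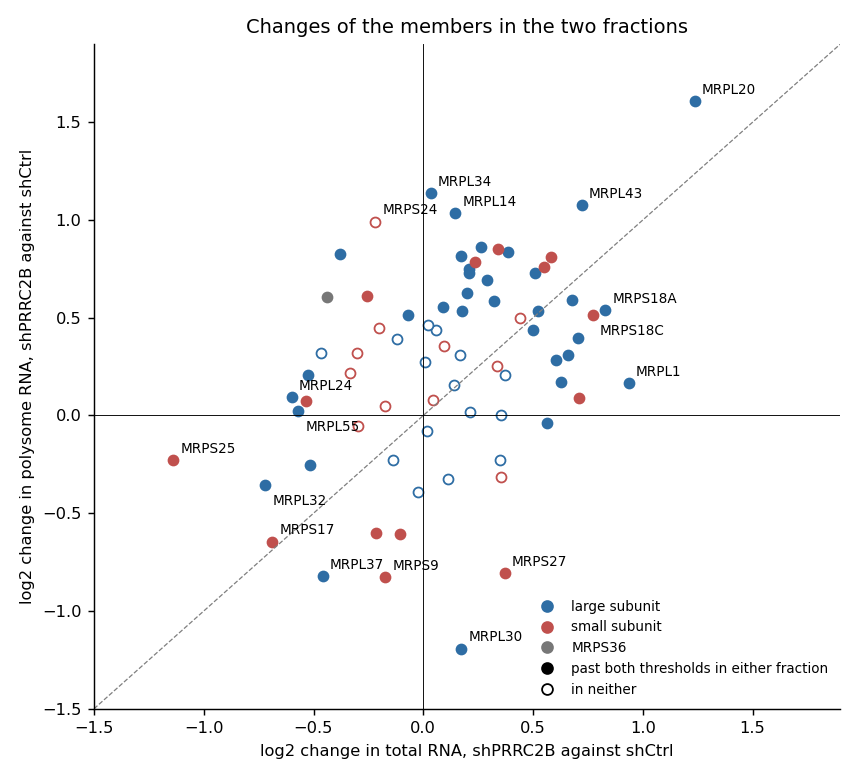
Log2 change between shPRRC2B and shCtrl in total RNA (x axis) and in polysome RNA (y axis) for the 75 tested members, with the dashed line of equal change. Filled points passed both thresholds in at least one fraction; MRPL20 is highest on both axes, while MRPL30 and MRPS27 lie to the right of 0 in total RNA and far below 0 in polysome RNA.

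Translation efficiency (TE) was taken as the ratio of polysome to total RNA, and its change between the lines was tested as the interaction of line and fraction. The polysome, total and TE comparisons share libraries. TE rose for 16 of 75 members (TE-up) and fell for 6 (TE-down), where 10.7% of all genes were TE-up and 16.4% TE-down. The median log2 TE change was 0.24 for the members and -0.03 for all genes, and 48 of the 75 members were above 0. Total-count scaling gave 18 TE-up and 4 TE-down members. These counts turned round when the trend of counts with transcript length was removed from each library. There were then 3 TE-up and 16 TE-down members, and the median was -0.08. Over all 18166 genes tested this fit gave 1776 TE-up and 1951 TE-down, with a median of 0.001. The large subunit then held 10 of the TE-down members and the small subunit 6, and 2 of the 3 TE-up members were of the small subunit. Of the 16 TE-up members only MRPS25, MRPS33 and MRPS36 were still TE-up, whereas 5 of the 6 TE-down members were still TE-down and 11 others joined them.

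The TE-up count also rested on single libraries. It fell to between 5 and 9 on leaving out 1 of 7 libraries, namely replicates 1 and 2 of shCtrl total RNA, 2 and 3 of shCtrl polysome RNA, 2 and 3 of total RNA from shPRRC2B, and 3 of its polysome RNA. It was 24 without shCtrl polysome replicate 1. The TE-down count was 13 without shCtrl polysome replicate 1, 11 without shPRRC2B polysome replicate 1 and 3 without shPRRC2B total replicate 1. Of the 22 TE calls, those of MRPS25, MRPS27, MRPS36 and MRPL30 held under all 21 alternatives run.

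**Figure D3:**
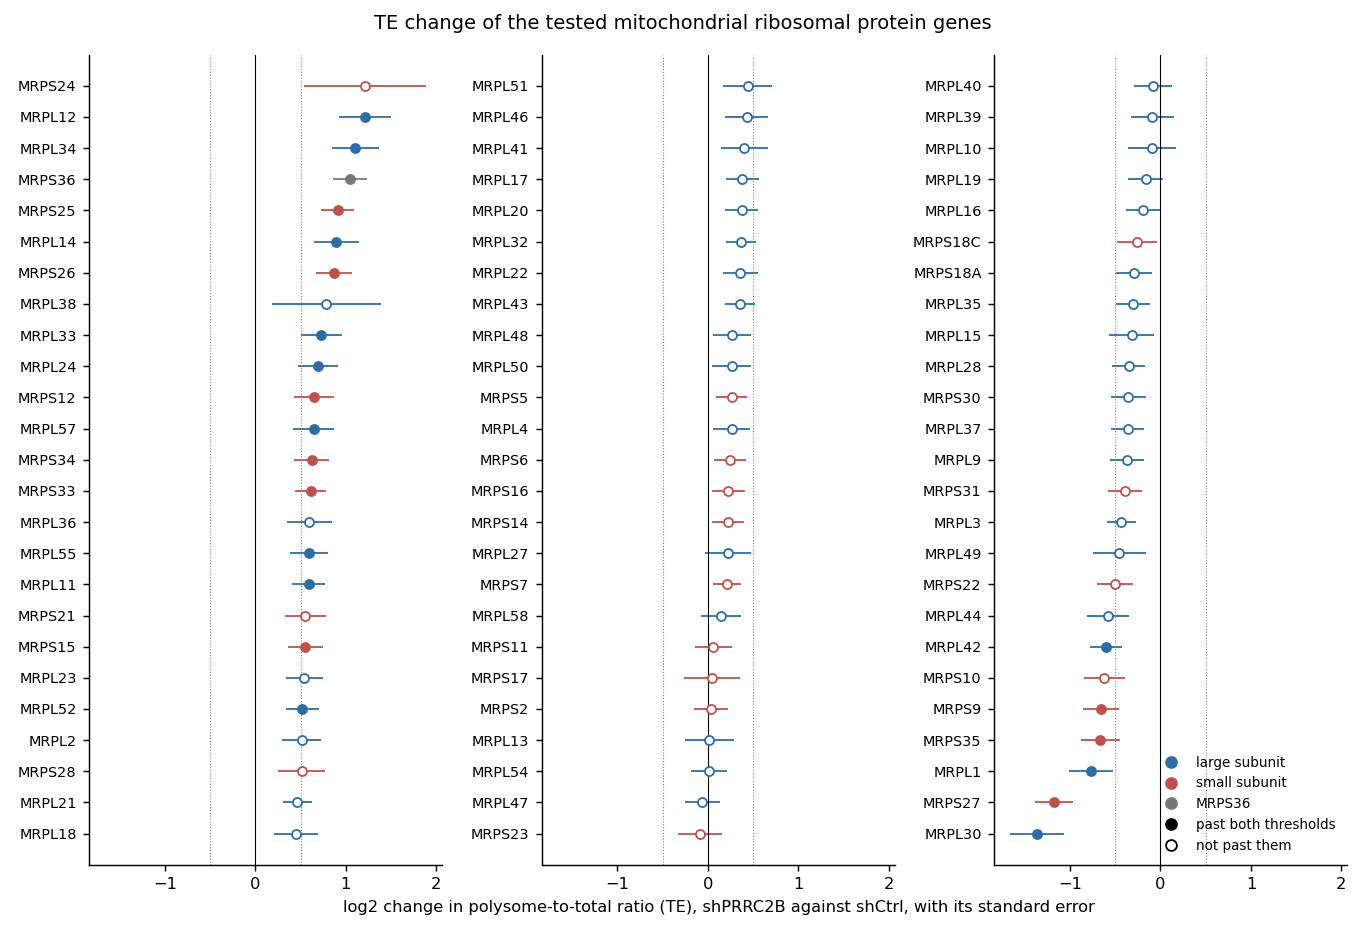
Log2 TE change (x axis) of each tested member, ordered from highest to lowest over 3 panels, with the standard error as a bar and dotted lines at 0.5 and -0.5. Filled points passed both thresholds, and colour gives the subunit; the changes run from 1.21 for MRPS24, not called, and for MRPL12 down to -1.36 for MRPL30.

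TE-up members of the large subunit numbered 9 of 49, where 10.7% of all genes were TE-up. MRPL12, the factor-binding stalk protein, was at 24.0, 29.7 and 21.5 CPM in shCtrl total RNA, at 23.3, 19.5 and 15.2 CPM in shPRRC2B total RNA, at 206, 128 and 109 CPM in shCtrl polysome RNA and at 267, 249 and 271 CPM in shPRRC2B polysome RNA. The lines overlapped in total RNA and were apart in polysome RNA. Its log2 TE change was 1.21 ± 0.29 (SE, adjusted p = 0.00488), and 69.5% of its exonic bases were shared with another gene.

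MRPL34 was at 32.6, 33.8 and 26.3 CPM in shCtrl total RNA, 32.0, 32.4 and 30.8 CPM in shPRRC2B total RNA, 388, 253 and 208 CPM in shCtrl polysome RNA and 609, 565 and 693 CPM in shPRRC2B polysome RNA. Total RNA overlapped between the lines while polysome RNA did not, and the log2 TE change was 1.10 ± 0.26 (adjusted p = 0.00439). The calls of MRPL12 and MRPL34 were lost with the length trend removed, at 0.72 and 0.59 (adjusted p = 0.070 and 0.098). The other TE-up members of this subunit were MRPL14, MRPL33, MRPL24, MRPL57, MRPL55, MRPL11 and MRPL52, with log2 changes of 0.89 down to 0.52. In MRPL33, MRPL24 and MRPL55 the call came with a fall in total RNA and no call in polysome RNA.

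Of the small subunit, 6 of 25 members were TE-up, beside 10.7% of all genes. MRPS25 had the largest change, 0.91 ± 0.18 (adjusted p = 0.00147). Its polysome RNA was at 172, 172 and 134 CPM in shCtrl and 145, 130 and 133 CPM in shPRRC2B, which overlap, so that its TE-up call came with the fall in total RNA given above. MRPS26, MRPS12, MRPS34, MRPS33 and MRPS15 had log2 changes of 0.87, 0.65, 0.62, 0.61 and 0.55. For MRPS33, too, the call came with a fall in total RNA and no call in polysome RNA. MRPS36 was at 9.58, 8.95 and 9.40 CPM in shCtrl total RNA, 7.14, 6.15 and 7.34 CPM in shPRRC2B total RNA, 127, 117 and 97.3 CPM in shCtrl polysome RNA and 183, 165 and 172 CPM in shPRRC2B polysome RNA. The lines were apart in both fractions and in opposite directions, with a log2 TE change of 1.05 ± 0.18 (adjusted p = 0.000606).

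TE-down members numbered 3 in each subunit, of 49 large and 25 small, where 16.4% of all genes were TE-down. MRPL30 was at 45.9, 42.5 and 45.4 CPM in shCtrl total RNA and at 50.8, 50.3 and 49.7 CPM in shPRRC2B total RNA. It was thus slightly higher in every shPRRC2B total library, without a call, and was lower in polysome RNA as given above. Its TE fell by 1.36 on the log2 scale (SE 0.29, adjusted p = 0.0026). MRPL30 spans chr2:99181152-99199561 (GRCh38), and its canonical transcript of 4435 nt holds a coding length of 483 nt.

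MRPS27, a pentatricopeptide-repeat protein of the small subunit, spans chr5:72214953-72321717 and was at 83.9, 88.7 and 88.8 CPM in shCtrl total RNA, 110, 113 and 115 CPM in shPRRC2B total RNA, 64.9, 81.7 and 108 CPM in shCtrl polysome RNA and 48.9, 53.4 and 43.3 CPM in shPRRC2B polysome RNA. It was thus higher in every shPRRC2B total library and lower in every shPRRC2B polysome library, and its TE fell by 1.18 (SE 0.21, adjusted p = 0.000742). MRPL1 fell by 0.77 (SE 0.24, adjusted p = 0.0243). Its polysome RNA, at 37.5, 48.7 and 49.2 CPM in shCtrl and 63.8, 45.5 and 42.5 CPM in shPRRC2B, overlapped between the lines.

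MRPS35 and MRPS9 fell by 0.67 (SE 0.22, adjusted p = 0.0292) and 0.65 (SE 0.20, adjusted p = 0.0224). MRPL42 fell by 0.60 (SE 0.17, adjusted p = 0.0153): its total RNA went from 74.5, 70.7 and 75.3 CPM to 113, 110 and 103 CPM, while polysome RNA was at 317, 319 and 293 CPM and at 344, 302 and 258 CPM. With the length trend removed MRPL42, whose canonical transcript is the 15557-nt one, was at 0.22.

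**Figure D4:**
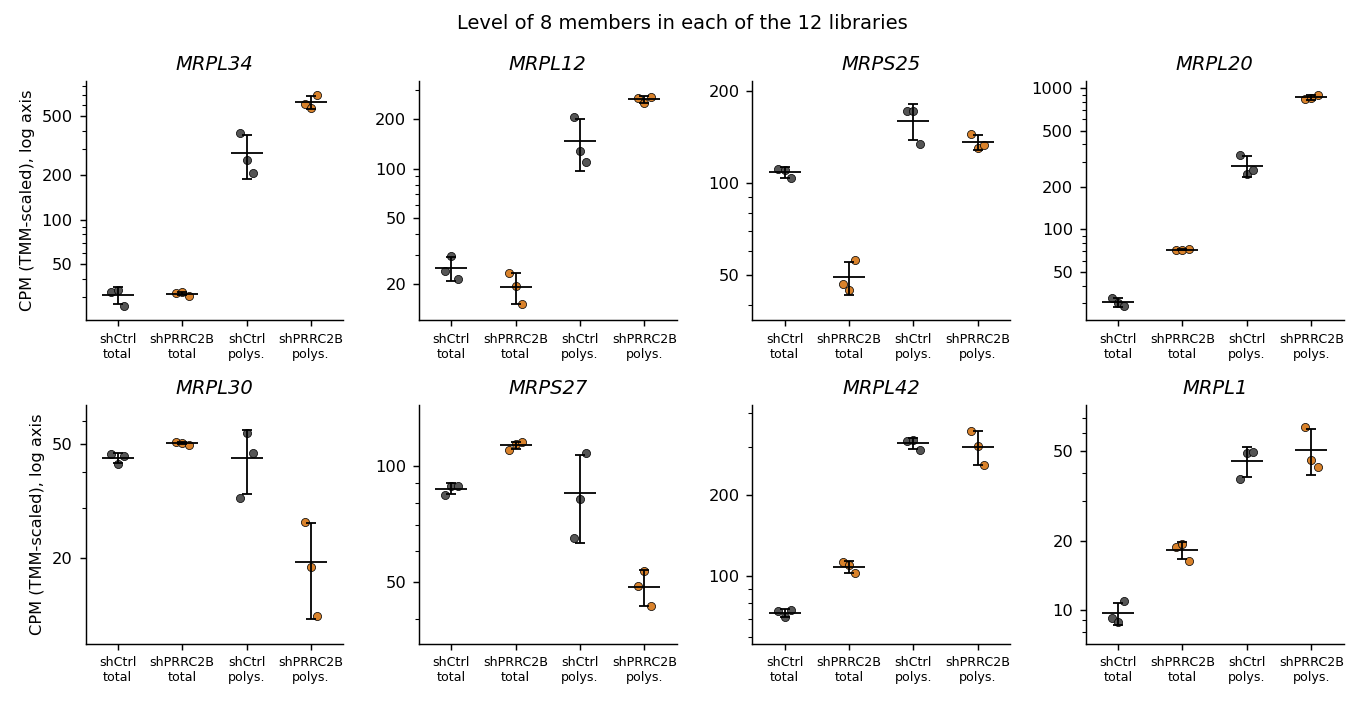
CPM (TMM-scaled, log axis) of 8 members in each of the 12 libraries, with shCtrl in grey and shPRRC2B in orange; each point is a library, and bars give the mean and SD of 3. In the upper row MRPL34 and MRPL12 differ between the lines in polysome RNA, MRPS25 in total RNA and MRPL20 in both; in the lower row MRPL30 and MRPS27 are lower in shPRRC2B polysome RNA, and MRPL42 and MRPL1 are higher in its total RNA.

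Longer coding sequences went with lower TE changes, among the members and among all coding genes. Across the 75 members, the log2 TE change and the log2 coding length had a Pearson r of -0.50 and a Spearman rho of -0.50, and across 13700 coding genes these were -0.29 and -0.34. With the transcript-length trend removed they were -0.50 and -0.47 across the members. Under 450 nt, 9 of 22 members were TE-up and 1 was TE-down, with a median of 0.48, against 31.2% TE-up, 3.25% TE-down and a median of 0.46 for coding genes of that length. From 450 to below 600 nt the medians were 0.36 for the members and 0.25 for coding genes, and from 600 to below 900 nt they were 0.09 and 0.07.

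At 900 nt or more 4 of 15 members, MRPS27, MRPL1, MRPS35 and MRPS9, were TE-down. Their class had a median of -0.39, against -0.28 for coding genes of 900 nt or more, 25.4% of which were TE-down. Those genes run longer, with a median coding length of 1758 nt against 1080 nt for the members. The median TE change was -0.06 for coding genes of 900 to below 1200 nt and -0.14 for those of 1200 to below 1500 nt. With the length trend removed 10 of the 15 were TE-down, with a median of -0.74, beside 1951 of all 18166 genes tested. Of the 22 members under 450 nt 2 were then TE-up, with a median of 0.07, beside 1776 of all genes. No member of 900 nt or more was called TE-up in the fit without that removal by edgeR or by DESeq2, and 1 was at an unadjusted p below 0.05. MRPL30 and MRPL42 departed from the pattern, being TE-down with coding lengths of 483 and 426 nt. Both have canonical transcripts that are mostly untranslated. Over all tested members the median transcript length was 1224 nt and the median coding length 582 nt. With the length trend removed MRPL30 was at -1.04 and still TE-down, and MRPL42 was at 0.22 and not called.

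The members were also counted by descent. Of 46 conserved members 9 were TE-up and 3 TE-down, with a median of 0.25, and of 28 mitochondria-specific members 6 were TE-up and 3 TE-down, with a median of 0.08, beside the 10.7% TE-up and 16.4% TE-down of all genes. The 9 mitochondria-specific members of the small subunit included 4 TE-up members (MRPS25, MRPS26, MRPS33 and MRPS34) and 2 TE-down members (MRPS27 and MRPS35).

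Of the 14 members with AAGATGGC at the start codon, 12 were tested. None was called TE-up by edgeR or DESeq2 or had an unadjusted p below 0.05 in that direction, MRPS27 was TE-down, and the median was -0.04 against 0.26 for the 63 members without these letters. Yet 6 of the 12 had a log2 TE change above 0. Among these were MRPS24, the highest of all members at 1.21, and MRPL38, which both had too few counts for a precise value. With the length trend removed 4 of the 12 were TE-down, beside 1951 of all 18166 genes tested, and the medians were -0.16 and -0.07. Over all coding genes tested, 471 held these letters, and of them 5.10% were TE-up and 23.6% TE-down, with a median of -0.28 against -0.15 for all coding genes. The median log2 polysome-to-total ratio in shCtrl was 1.71 for the 12 members and 2.50 for the 63 others. In total RNA 5 of the 12 were higher in shPRRC2B, namely MRPS18A, MRPS10, MRPL35, MRPL49 and MRPS7, and MRPL50 was lower, where 15.9% of the 471 coding genes with these letters were higher and 9.34% lower.

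The 3 paralogs MRPS18A, MRPS18B and MRPS18C encode related proteins at different places of the ribosome. MRPS18C, like MRPS18B of the small subunit, was at 9.09, 9.71 and 6.50 CPM in shCtrl total RNA and at 15.6, 14.6 and 13.6 CPM in shPRRC2B total RNA. MRPS18A, of the large subunit, was at 13.1, 11.8 and 13.1 CPM and at 21.9, 24.0 and 21.3 CPM. Both rose without overlap, by 0.77 ± 0.17 and 0.83 ± 0.15 on the log2 scale, and both rose in polysome RNA, by 0.51 ± 0.15 and 0.54 ± 0.14. Their TE changes of -0.26 ± 0.22 and -0.29 ± 0.20 did not pass the test. Of their exonic bases 83.6% and 60.6% were shared with another gene, ABRAXAS1 and RSPH9, and MRPS18B had too few reads.

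In the study's lists of crosslink sites, MRPS27 and MRPS6 carried a site of full-length PRRC2B in the 3′ UTR, and MRPL42 one of a PRRC2B fragment in the coding sequence or 3′ UTR. The study took as PRRC2B-bound the mRNAs with sites that overlapped between full-length PRRC2B and that fragment. None of the 3 members was listed with both. MRPS27 and MRPL42 were TE-down, as given above, where 16.4% of all genes were TE-down. MRPS6, of the small subunit, was at 15.7, 13.9 and 15.3 CPM in shCtrl total RNA and 11.2, 13.1 and 12.2 CPM in shPRRC2B, and at 94.4, 82.2 and 76.9 CPM and 83.6, 81.2 and 79.4 CPM in polysome RNA. Its polysome libraries overlapped, and its log2 TE change of 0.24 ± 0.18 did not pass the test (adjusted p = 0.325).

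Genes that act with the mitochondrial ribosome were counted from lists of its other proteins and factors. Among 5 proteins of the mitochondrial ribosome with other names, CHCHD1 was TE-up (0.995 ± 0.23, adjusted p = 0.0045), AURKAIP1 rose in total RNA by 1.01 ± 0.17 and in polysome RNA by 1.49 ± 0.17, and DAP3, a GTP-binding protein of the small subunit, fell in total RNA by 0.59 (SE 0.11). Of 23 assembly factors tested, RBFA, MTERF4, MRM2 and MALSU1 were TE-up and FASTKD2 and GTPBP10 were TE-down. Of 16 mitochondrial translation factors 6 were TE-down: the elongation factors TUFM and GFM1, the initiation factor MTIF2, GFM2, which acts in ribosome recycling, GUF1, and LRPPRC, which stabilizes mitochondrial mRNAs. None of the 16 was called TE-up by edgeR or DESeq2 or had an unadjusted p below 0.05 in that direction. The median log2 TE change was -0.15 for the assembly factors and -0.36 for the translation factors, whose median coding lengths were 1218 and 1236 nt against 582 nt for the members. Of all genes 10.7% were TE-up and 16.4% TE-down, and of coding genes of 900 nt or more 6.33% and 25.4%.

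LRPPRC and GFM1 had the largest falls, by 1.60 (SE 0.18, adjusted p = 2.1e-05) and 1.28 (SE 0.24, adjusted p = 0.000886). Of the 13 mRNAs encoded in the mitochondrial genome, MT-ND5 was TE-down with an adjusted p of 0.0498 (log2 change -1.41, SE 0.51) and by DESeq2 none was called. Their summed CPM differed widely within a line, from 24977 to 62458 in shCtrl polysome RNA and from 36839 to 71245 in shPRRC2B polysome RNA. Replicate 1 was the highest in both.

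The cytosolic ribosomal protein genes encode the proteins of the ribosomes on which the members' mRNAs are translated. Of 75 tested, 44 were lower in shPRRC2B total RNA and by edgeR or DESeq2 none was higher, even at an unadjusted p below 0.05, with a median log2 change of -0.64 against 0.17 for the members of the mitochondrial ribosome. Of all genes 14.1% were lower and 14.9% higher. In polysome RNA 6 genes of the list were higher and 15 lower, with a median of -0.15, against 18.4% and 21.4% of all genes. TE rose for 24 of the 75, with a median of 0.34, where 10.7% of all genes were TE-up. For none did TE fall by either tool, with 1 at an unadjusted p below 0.05, while 16.4% of all genes were TE-down. The median coding length was 468 nt for this list. Of coding genes under 450 nt 31.2% were TE-up, and of those from 450 to below 600 nt 17.8%.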

How the data were processed

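Total RNA and RNA pooled from polysome gradient fractions were sequenced as poly(A) libraries, paired-end. Per the study's methods and the submitters' processing notes, the authors trimmed reads with Trimmomatic 0.36, aligned them to GRCh38 with HISAT2 2.1.0 and counted read pairs per GENCODE 38 gene name with featureCounts of Subread 2.0.1, without strand and without pairs that match several places or genes. The authors deposited these as 1 table of raw counts per gene name for 12 libraries, which is the unit used here.

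The counts were fitted with edgeR 4.0.16 (R 4.3.3), as 4 groups of line and fraction scaled by TMM, after filterByExpr with a minimum count of 10, using the quasi-likelihood test without a block. DESeq2 1.42.0, the tool the authors name, was run as an alternative. P-values were adjusted by Benjamini-Hochberg over all 18166 names tested, and a call needed an adjusted p below 0.05 and a log2 change above 0.5 or below -0.5. CPM values are TMM-scaled, and a change is shPRRC2B minus shCtrl unless it is named as polysome against total. The fit was tested on simulated counts. Total counts per library, 9855734 to 20837542, set the precision. P-values measure the spread among 3 biological replicates of 1 clone per line.

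Lengths, positions and start-codon contexts came from the canonical transcripts of GENCODE 44, matched by name. The length trend was a lowess curve (span 0.3) of log counts on transcript length in each library, used as an offset. The members and lists were chosen with earlier results of these data known, and the classes of coding length and the start-codon letters after the values were seen. Named members were those with the 10 highest and 10 lowest TE changes, the 5 highest and 5 lowest in each other quantity, the MRPS18 paralogs, members with a crosslink site, members not tested and those whose subunit departs from the symbol. Other members are named where they were called. Alternatives were DESeq2, other scalings, another filter, replicate and culture blocks, the length trend and leaving out each library.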

Additional observations from a re-analysis of the deposited data

Results flagged for a closer look

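For 22 members the change between the lines differed between polysome and total RNA by the test of that difference (edgeR, the TE change), which is what marks them here. They were 16 TE-up and 6 TE-down members of 75 tested, where 10.7% of all genes were TE-up and 16.4% TE-down. Of the 22, only 4 stayed past the thresholds under every alternative. With the length trend removed 3 of the 16 were still TE-up and 5 of the 6 still TE-down. In the upward direction the log2 differences were 1.21 for MRPL12, 1.10 for MRPL34, 1.05 for MRPS36, 0.91 for MRPS25, 0.89 for MRPL14, 0.87 for MRPS26, 0.73 for MRPL33, 0.69 for MRPL24, 0.65 for MRPS12 and 0.64 for MRPL57. Smaller ones were 0.62 for MRPS34, 0.61 for MRPS33, 0.59 for MRPL55, 0.59 for MRPL11, 0.55 for MRPS15 and 0.52 for MRPL52. In the downward direction they were -1.36 for MRPL30, -1.18 for MRPS27, -0.77 for MRPL1, -0.67 for MRPS35, -0.65 for MRPS9 and -0.60 for MRPL42.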

How the results depend on the processing

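Removing the transcript-length trend gave 3 TE-up and 16 TE-down members, 4 lower in total RNA, 16 higher and 12 lower in polysome RNA, and 3 and 10 members lower in polysome than total RNA in shCtrl and shPRRC2B. With the replicate block added these were 4, 17, 4, 17, 12, 3 and 10. The median TE change of the members went from 0.24 to -0.078 and, with the block, -0.080. Among the genes of the 5 lists beside the members, TE-up genes went from 5 to 3, and cytosolic ribosomal protein genes from 24 TE-up to 15 (14 with the block), with 2 TE-down. Over all genes, TE-down calls went from 2981 to 1951. Scaling by total counts gave 11 members higher in total RNA and 7 and 8 lower in polysome than total RNA, and over all genes 3211 in place of 5906 higher in polysome RNA of shCtrl. Testing every gene with at least 1 count gave 3 TE-up and 16 TE-down list genes (10 TE-down otherwise) and 1 TE-down cytosolic ribosomal protein gene. The cause was not tested in any of these.

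Leaving out each library in turn gave 5 to 24 TE-up and 3 to 13 TE-down members and a median TE change of 0.09 to 0.25. It gave 12 to 17 members higher and 4 to 9 lower in total RNA, 16 to 27 higher and 6 to 11 lower in polysome RNA, and 67 to 68 and 66 to 67 higher in polysome than total RNA in shCtrl and shPRRC2B. List genes were 2 to 8 TE-up and 9 to 17 TE-down. DESeq2, RLE size factors, TMM within each fraction, the culture block and no minimum log2 change left each count of members within 1.5 times.

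The replicate block gave 16 TE-up and 6 TE-down members and changed no call of a named member. Deviations of same-numbered libraries from their group means correlated at -0.06 to 0.05, so that the numbers were not taken to pair the samples.

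Signs turned as follows. MRPL42's TE change was 0.22 with the length trend removed, also with the block, and MRPL38's ran from -0.24 (without shPRRC2B polysome replicate 1) to 1.09 on leaving out a library. The log2 polysome-to-total ratio in shCtrl of MRPS27 ran from -0.27 to 0.090 (without shCtrl polysome replicate 1). That of MRPL30 was 0.028 by DESeq2 and by RLE and 0.87 with the length trend removed with or without the block, and ran from -0.20 to 0.15 on leaving out a library, above 0 when replicate 1 of either shCtrl fraction was absent. That of MRPS5 was -0.92 with total counts and -0.050 with every gene, and ran from -0.0017 (without shCtrl total replicate 3) to 0.12. That of MRPS30 was -0.75 with total counts and -0.78 with the length trend removed, with or without the block. Of 47 named values past the thresholds, 25 stayed past them under every alternative, among them 4 of the 22 TE changes. Depth limits MRPS24 and MRPL38 in particular.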

Other observations

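The rRNA of the mitochondrial small subunit, MT-RNR1, was at 626 CPM in each shCtrl total library to 3 digits and at 575 to 644 CPM in shPRRC2B total RNA. In polysome RNA it ranged from 1009 to 20252 CPM in shCtrl and from 648 to 1509 CPM in shPRRC2B, ranges that overlap. Its log2 TE change was -3.25 ± 0.83 (SE, edgeR adjusted p = 0.0077), while that of MT-RNR2, of the large subunit, was -1.17 and did not pass the test. Both come from poly(A) libraries.

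MRPL21 had an adjusted p of 0.037 with a log2 TE change of 0.46, short of the fold threshold, and MRPL52 at 0.52 was just past it. MRPS10, with a log2 TE change of -0.62 and an adjusted p of 0.051, lay just outside the other threshold.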
